A study of Mus musculus with 6 samples.

Results

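The genes described here carry out heme synthesis, heme breakdown, the assembly of iron-sulphur clusters and the handling of iron. They were 29 genes chosen by name, of which 27 had a probe set that names that gene alone, out of 12947 genes tested on the array. Expression was compared between 3 arrays of mouse inguinal fat cells given 1 uM rosiglitazone for 4 days and 3 arrays of control cells without the drug, all differentiated. Rosiglitazone activates PPARγ, the nuclear receptor that drives fat cell formation, and the labels call the effect beiging in treated cells and describe controls as non-activated. The labels used here give no strain, sex, age or culture of origin, and do not say whether the arrays of a group stand for separate cultures. The p-values therefore cover only the spread of these arrays, which is possibly technical. The treatment text of the labels names the drug for all 6 samples, and the groups were therefore taken from the titles and the treatment characteristic.

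Heme is an iron porphyrin made partly in mitochondria and partly in the cytosol, and it is the cofactor of cytochromes. Iron-sulphur clusters are built in mitochondria on a scaffold protein and then passed to respiratory enzymes and other proteins. Iron enters cells bound to transferrin, is stored in ferritin and leaves through ferroportin, and both cofactor pathways draw on it. Brown and beige fat cells are rich in mitochondria, whose respiratory chain contains heme and iron-sulphur proteins.

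The arrays had median intensities of 44.65 to 46.81 and highest values of 16947 to 17925. Ucp1, the uncoupling protein of heat-producing fat, averaged 1495 ± 16.9 on rosiglitazone arrays and 5.38 ± 1.37 on control arrays (SD, n = 3 each), which is under the floor of 16 used for testing. Fat cell markers were bright in both groups, with Adipoq at 13158 on rosiglitazone arrays and 12829 on control arrays. Macrophage markers were also present: 14 of 17 could be tested, 13 of these were called lower and 1 higher, and their summed intensity was 5711 to 6321 on rosiglitazone arrays and 15961 to 17239 on control arrays. Of 7 tested markers of fat precursors and fibroblasts, 6 were called lower and 0 higher, with sums of 9679 to 10184 on rosiglitazone arrays and 18380 to 18942 on control arrays. Of 10 measured fat cell markers 2 were called higher and 5 lower. Their sums were 87079 to 87848 on rosiglitazone arrays and 94178 to 95097.5 on control arrays. The largest called changes among them were in Retn (log2 change −0.87), Dgat2 (−0.60), Pparg (−0.36) and Cidec (0.28). Of 8 endothelial markers 2 were bright enough to be tested, and both were called lower. With no filter on low values 2 of the 8 were called lower and 0 higher, with a median log2 change of −0.01. Of all genes tested, 23.5% were called higher and 35.7% lower. Markers of red cell precursors were dim. Of 14 listed, 8 had a probe set with their symbol alone and 3 could be tested. These were Hba-a2, Epor and Gata1, which averaged 44.2, 52.6 and 53.8 over all arrays, near or above the array medians. They summed to 140.1 to 165 on rosiglitazone arrays and 140.03 to 149 on control arrays, and 0 were called. Hba-a1, which could not be tested, averaged 4.91. Alas2, from the list of further heme genes, averaged 7.47 and could not be tested either. In such bulk samples fewer cells of a type and less RNA per cell cannot be told apart.

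With rosiglitazone, all 11 measured genes of cluster assembly rose. The transferrin receptor gene Tfrc rose 2.08-fold and the ferroportin gene Slc40a1 fell to 0.556 of its control level. Genes of heme synthesis moved in both directions, with log2 changes from −0.17 to 0.39, the highest in Urod (1.31-fold). A gene was called when its adjusted p in limma, over all genes tested, was under 0.05. Of the 27 measured genes 17 were called higher, where 23.5% of all genes tested were, and 7 were called lower, where 35.7% were. Together 24 were called, against a background of 59.2% of all genes. The 3 arrays of one group lay wholly on one side of the other for 22 of the 27, and for 63.9% of all genes tested. The median log2 change, rosiglitazone minus control, was 0.19 over the 27 genes and −0.05 over all genes tested. By role, the median was 0.44 for 11 genes of cluster assembly, 0.00 for 8 of heme synthesis, −0.17 for 5 of iron uptake, storage and export, and 0.16 for 3 of heme breakdown.

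**Figure D1:**
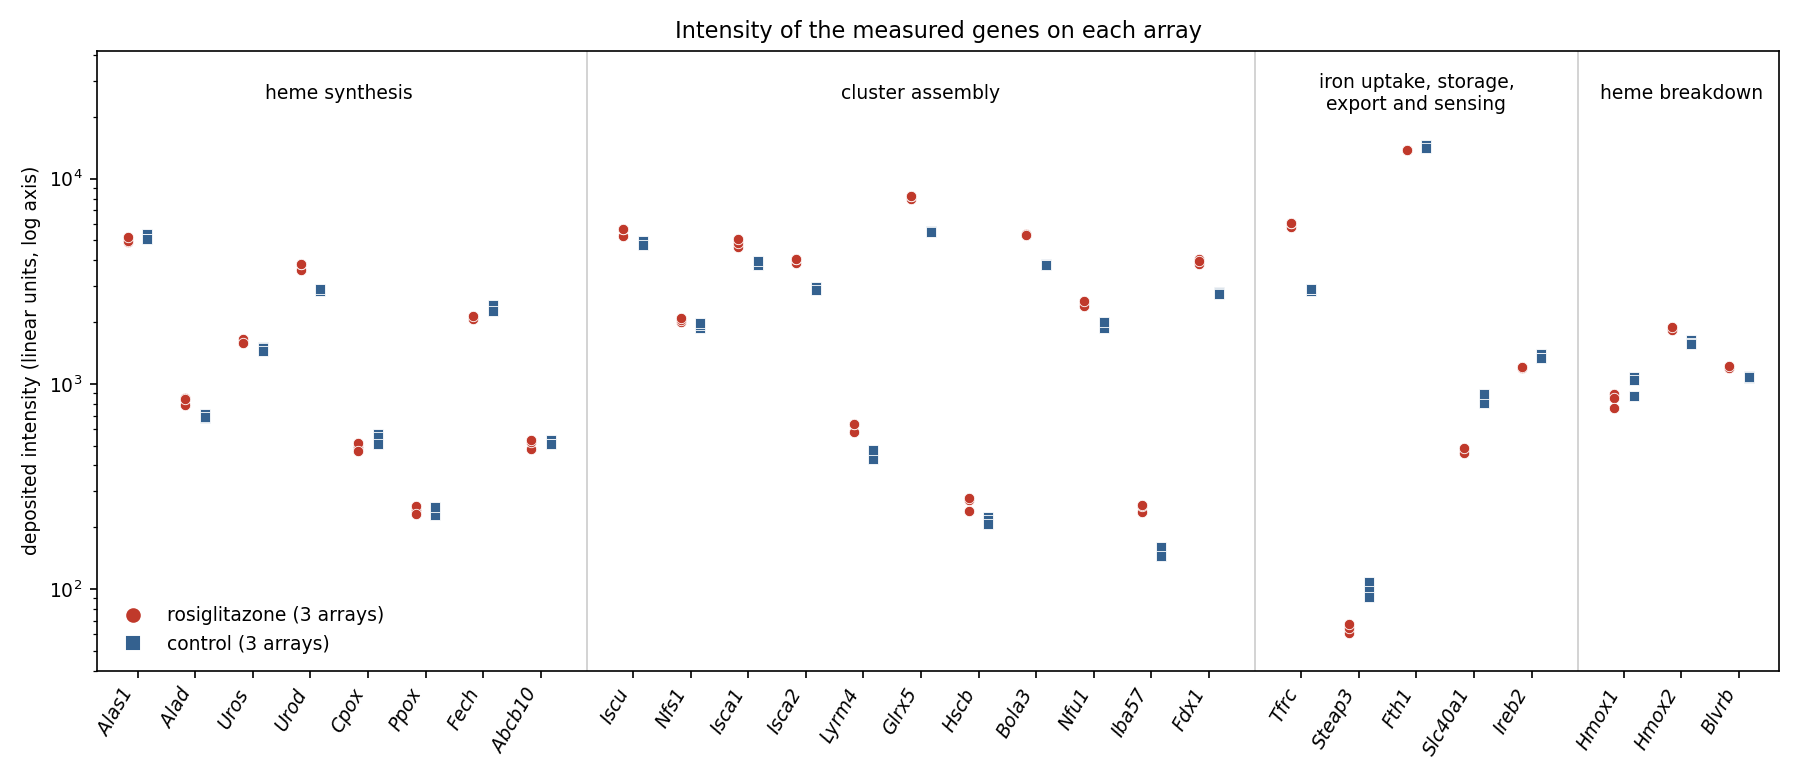
Deposited intensity (log axis) of each measured gene on the 3 rosiglitazone arrays (circles, left) and the 3 control arrays (squares, right), by role; levels are compared within a gene, not between genes. The groups separate for all 11 cluster assembly genes and for Tfrc, Steap3 and Slc40a1, and overlap for Alas1, Cpox, Ppox, Abcb10 and Hmox1.

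**Figure D2:**
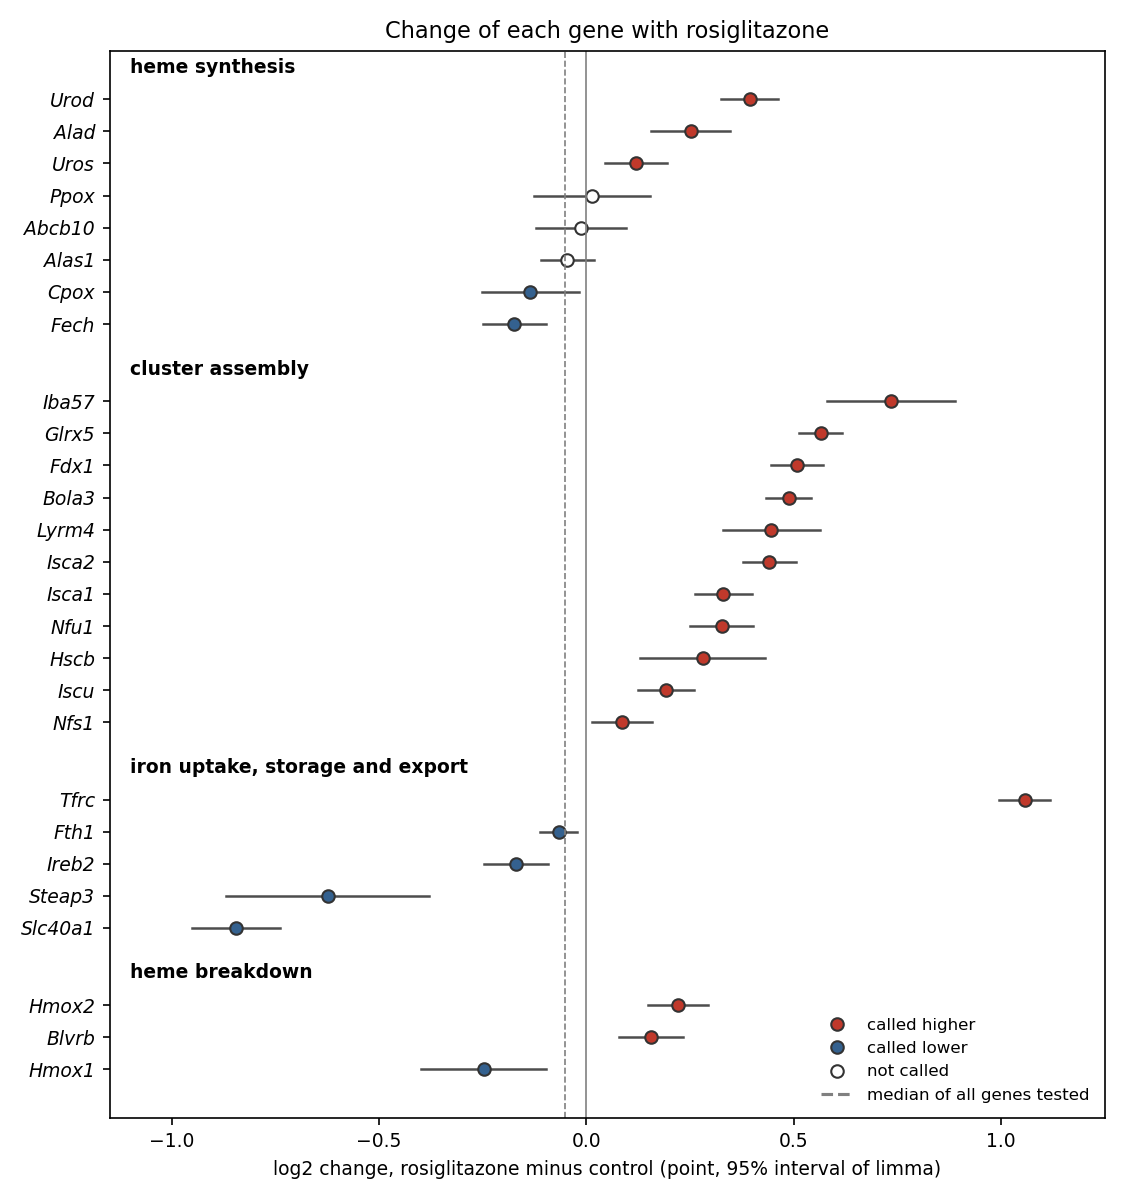
Log2 change of each gene, rosiglitazone minus control, with the 95% interval from limma (n = 3 arrays each); filled points were called, and the dashed line is the median of all genes tested, −0.05. Cluster assembly genes lie between 0.09 and 0.73, heme synthesis genes between −0.17 and 0.39.

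The genes of the assembly machinery itself rose by small to moderate amounts. Nfs1 encodes the desulfurase that takes sulphur from cysteine. Its intensity was 2000.3, 2039 and 2089 on rosiglitazone arrays and 1867, 1926 and 1983 on control arrays, so that the groups did not overlap but lay close. The log2 change was 0.09 (SE 0.03, limma adjusted p = 0.043), the smallest in this group. Leaving out any one of control replicates 1 and 2 and rosiglitazone replicates 2 and 3 ended the call (0.06, 0.09, 0.09 and 0.07), and its adjusted p over all alternatives ranged from 0.00015 to 0.17. Lyrm4, whose product stabilises the desulfurase, stood at 583, 637 and 640.4 on rosiglitazone arrays and at 459, 429.97 and 478 on control arrays. It rose by 0.45 (SE 0.06, limma adjusted p = 2.9e-06), with every treated array above every control array. Iscu encodes the scaffold on which the cluster is built. It measured 5279.8, 5664 and 5684 on rosiglitazone arrays and 4823, 4988 and 4752 on control arrays, a rise of 0.19 (SE 0.03, limma adjusted p = 7.2e-05). Fdx1, a mitochondrial ferredoxin that carries electrons, rose more. Its values were 3820.5, 4046 and 3961 with rosiglitazone and 2804, 2765 and 2746 in control cells, 1.42-fold (log2 change 0.51, SE 0.03, limma adjusted p = 3.5e-10). Fdxr, whose product reduces ferredoxins, had no probe set with its symbol alone in the annotation used and was not analysed here.

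Genes for handing the finished cluster on rose as well. Hscb, a co-chaperone that releases the cluster from the scaffold, read 272, 277 and 239.9 on rosiglitazone arrays and 224, 217 and 208 on control arrays (log2 change 0.28, SE 0.07, limma adjusted p = 0.0028). Glrx5 encodes the glutaredoxin that receives it. Its intensity was 7999, 8274 and 8274 on rosiglitazone arrays, far above 5541, 5561 and 5495 on control arrays. The rise was 1.48-fold (log2 change 0.56, SE 0.02, limma adjusted p = 7.3e-12), with no overlap between groups. Hspa9, the mitochondrial chaperone that works with Hscb and was listed among further cluster genes, also rose (log2 change 0.34), although its most variable probe set was not called.

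Isca1, Isca2 and Iba57 act together to build the larger, cubane type of cluster. Iba57 had the largest rise in cluster assembly: it was dim, at 238, 252 and 257 with rosiglitazone and at 145, 160.1 and 144.7 in control cells. That was 1.66-fold (log2 change 0.73, SE 0.07, limma adjusted p = 2.2e-07). Isca2 measured 3866, 4039 and 4038 on rosiglitazone arrays and 2949, 2977 and 2868 on control arrays, a rise of 0.44 (SE 0.03, limma adjusted p = 2.0e-09). Isca1 measured 4644, 4881 and 5063 on rosiglitazone arrays and 3863, 3784 and 3951 on control arrays, a rise of 0.33 (SE 0.03, limma adjusted p = 2.0e-07). All 3 genes thus separated the groups on every array. Bola3 and Nfu1 encode late factors that deliver clusters to recipient enzymes such as lipoic acid synthase. Bola3 was very even within groups, at 5302, 5353 and 5317 with rosiglitazone and at 3816, 3788 and 3790.2 in control cells (log2 change 0.49, SE 0.03, limma adjusted p = 6.5e-11). Nfu1 measured 2443, 2386 and 2534 on rosiglitazone arrays and 1996, 1879.8 and 1998 on control arrays (log2 change 0.33, SE 0.04, limma adjusted p = 7.2e-07).

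Other genes of the same pathway, from a longer list, moved in the same direction for the most part. Of 16 measured further cluster genes 12 rose, 1 fell and 3 were not called, with a median log2 change of 0.29. The shares over all genes tested were 23.5% called higher and 35.7% called lower. Ciapin1, Ciao3 and Gfer had the largest rises among them, at 0.64, 0.49 and 0.39. Ciapin1 and Ciao3 act in the cytosolic branch of cluster assembly, and Gfer is a mitochondrial sulfhydryl oxidase. Mms19, which passes clusters to DNA repair and replication enzymes, fell by 0.48. Averaging its probe sets gave −0.25 for Mms19, still called lower. Of 11 measured iron-sulphur proteins of mitochondria 9 rose and 0 fell, with a median of 0.22. Etfdh, which feeds electrons from fatty acid oxidation into the respiratory chain, led them with a log2 change of 0.65, followed by Ndufs8 at 0.44 and Ndufv2 at 0.43, subunits of complex I, and by Cisd1, an outer membrane protein, at 0.30.

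Along the heme pathway the first step did not pass the test. Alas1 encodes the rate-limiting synthase of heme outside red cells. It was bright and overlapping, at 4908, 4966 and 5174 on rosiglitazone arrays and 5377, 5079.6 and 5079.6 on control arrays. The log2 change was −0.05 (SE 0.03, 95% interval −0.11 to 0.02, limma adjusted p = 0.21). It was 0.08 and not called after median centring, and −0.09 and called lower after quantile normalization. The middle steps, which take place in the cytosol, were called higher. Alad, which makes porphobilinogen, stood at 785, 848 and 846 on rosiglitazone arrays and at 711, 684 and 687 on control arrays (log2 change 0.25, SE 0.05, limma adjusted p = 0.00016). With the mean of its probe sets Alad was at 0.074 and not called, which left 2 heme synthesis genes called higher in place of 3. Uros, which closes the ring, had values of 1611, 1649 and 1586 with rosiglitazone and 1518, 1489.8 and 1451 in control cells (log2 change 0.12, SE 0.04, limma adjusted p = 0.0076). Without rosiglitazone replicate 2 the change of Uros was 0.11 and no longer called. Urod, which decarboxylates the ring, had the largest change of the heme pathway genes. It measured 3603, 3855 and 3852 on rosiglitazone arrays and 2863, 2827 and 2914 on control arrays, 1.31-fold (log2 change 0.39, SE 0.03, limma adjusted p = 2.1e-08). The name of its probe set ends in x, Affymetrix's mark for probes that can match other transcripts, but a second probe set without that mark rose by 0.41.

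The last steps return to mitochondria, and none of them was called higher. Cpox, the first of the oxidases there, read 494, 512 and 472 on rosiglitazone arrays and 567, 550.5 and 506 on control arrays, overlapping ranges. It was called lower (log2 change −0.14, SE 0.05, limma adjusted p = 0.044). Cpox was no longer called when control replicate 1, control replicate 2, rosiglitazone replicate 1 or rosiglitazone replicate 3 was left out, at −0.10, −0.12, −0.14 and −0.10, and its adjusted p over all alternatives ranged from 0.0078 to 0.86. Its other tested probe set went the other way, at 169, 172 and 173 with rosiglitazone and 141, 147 and 145 in control cells (log2 change 0.25, limma adjusted p = 0.012). The probe sets of Cpox thus disagreed in sign. Ppox, the next oxidase, averaged 243 ± 10.3 on rosiglitazone arrays and 241 ± 10.7 on control arrays (SD, n = 3 each), a log2 change of 0.01 (95% interval −0.13 to 0.15, limma adjusted p = 0.88). Fech, which inserts the iron, fell by 0.17 (SE 0.04, limma adjusted p = 0.00047), with 2098, 2059.7 and 2129 on rosiglitazone arrays and 2425, 2419 and 2251 on control arrays. A second probe set of Fech also fell, by 0.21, but another had a log2 change of −0.01 (limma adjusted p = 0.79), and after median centring the gene was not called (−0.05). Abcb10, a transporter of the inner mitochondrial membrane that aids heme synthesis, averaged 512 ± 25.2 on rosiglitazone arrays and 516 ± 13.1 on control arrays (SD, n = 3 each). Its log2 change was −0.01 (95% interval −0.12 to 0.10, limma adjusted p = 0.85).

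Among 15 measured further heme genes 10 rose, 3 fell and 2 were not called, with a median log2 change of 0.17. Over all genes tested 23.5% were called higher and 35.7% lower. The largest rises were in Hccs (0.75), which joins heme to cytochrome c, and Cox10 (0.73), which starts the conversion of heme to the heme a of cytochrome oxidase. Flvcr2, a transporter gene, rose by 0.67 and Blvra, which encodes the other biliverdin reductase, by 0.66. The falls, picked out here after their values were seen, were in the heme-binding protein gene Hebp1 (−0.56), the heme transporter gene Slc48a1 (−0.47) and the mitochondrial carrier gene Slc25a38 (−0.36).

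With the brightest probe set of each gene, the largest change of the 27 genes was in iron uptake. Tfrc encodes the transferrin receptor, through which cells take up iron. Its intensity was 5788, 6060.5 and 6109 on rosiglitazone arrays and 2843, 2882 and 2905 on control arrays. The groups were far apart, with 2.08-fold more in treated cells (log2 change 1.06, SE 0.03, limma adjusted p = 3.4e-14), the 168th largest rise of all genes tested. Iba57 changed more than Tfrc with the mean of probe sets (0.98 for Iba57 and 0.87 for Tfrc) and with the most variable one (1.23 for Iba57 and 1.13 for Tfrc). Steap3, a reductase of endosomes that prepares transferrin iron for transport, was dim and lower in treated cells, at 60.7, 64.6 and 67.4 against 107.6, 97.8 and 91.9 in control cells. It fell by 0.62 on the log2 scale (SE 0.12, limma adjusted p = 0.00019). A second probe set of Steap3 had a log2 change of 0.06 (limma adjusted p = 0.81), and the mean of both was −0.28 and not called.

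Slc40a1 encodes ferroportin, the iron exporter. Its values were 481, 460.2 and 484 on rosiglitazone arrays and 867, 803 and 895 on control arrays, with no overlap. It fell by 0.85 on the log2 scale (SE 0.05, limma adjusted p = 3.6e-10), to 0.556 of its control level, and a second probe set fell by 0.58. Macrophages express ferroportin strongly, and the macrophage markers given above were lower in the same arrays. Their part in the fall of Slc40a1 was not tested. Fth1, the heavy subunit of ferritin, was among the brightest signals, at 13727, 13813 and 13845 on rosiglitazone arrays and 14546, 14642 and 14172 on control arrays. Its log2 change of −0.07 (SE 0.02, limma adjusted p = 0.011) was called, but it was 0.06 and not called after median centring. Leaving out control replicate 1 or 2 also ended the call, at −0.06 each time, and its adjusted p over all alternatives ranged from 0.00034 to 0.14. Ftl1, the light subunit, is named only by probe sets that also carry the symbol of a pseudogene, and was not analysed here. Ireb2, which binds iron-responsive elements in mRNAs such as those of ferritin and the transferrin receptor, fell by 0.17 (SE 0.04, limma adjusted p = 0.00071). It measured 1212, 1197 and 1210.3 on rosiglitazone arrays and 1396, 1336 and 1339.8 on control arrays, and the fall was −0.05 and not called after median centring.

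In a longer list of iron genes 15 of 26 measured members fell, 5 rose and 6 were not called, with a median log2 change of −0.21. Over all genes tested 35.7% were called lower and 23.5% higher. The largest falls were in Lcn2 (−2.30), a secreted protein that binds iron-carrying siderophores, the ferroxidase gene Cp (−1.82), Scara5 (−1.55), a receptor for ferritin, and Slc39a14 (−1.44), a metal transporter gene. With the mean of probe sets Scara5 was at −0.77 and Slc39a14 at −0.63, both still called lower. The macrophage and precursor markers given above were lower in the same arrays, and their part in the falls of this list was not tested. Several of these products have other roles, since Lcn2 and Cp are acute phase proteins. The 5 rises, named after their values were seen, were Slc11a2 (0.54), which carries iron out of endosomes, the ferrireductase gene Steap4 (0.22), Aco1 (0.21), whose product is the other binder of iron-responsive elements, Slc25a28 (0.15), a mitochondrial iron importer, and Ncoa4 (0.15), which sends ferritin to be broken down. Slc25a28 lost its call in 7 of 19 alternatives, among them leaving out control replicate 3 or rosiglitazone replicate 1, and Ncoa4 lost it with the most variable probe set. With the mean of probe sets Slc11a2 was at 0.32 and still called. Slc25a37, the other mitochondrial iron importer gene in the list, fell by 0.42 and kept its call in all 19 alternatives. It too was named after its value was seen. After median centring 5 of the list rose and 12 fell, where 4550 of all 12947 genes tested were called higher and 3273 lower.

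Of the 3 genes counted under heme breakdown, 2 were called higher and 1 lower, where 23.5% and 35.7% of all genes tested were. Blvra was counted among the further heme genes above. Hmox1, the inducible heme oxygenase, read 896, 854 and 764 on rosiglitazone arrays and 1080.4, 1041 and 870.4 on control arrays. The ranges overlapped, since control replicate 3 lay below rosiglitazone replicate 1. It fell by 0.25 on the log2 scale (SE 0.07, limma adjusted p = 0.0066), but after median centring it was −0.13 and after quantile normalization −0.14, and not called in either. Hmox1 is abundant in macrophages, whose markers were lower in the same arrays, and their part in this fall was not tested. Hmox2, the constitutive oxygenase, rose by 0.22 (SE 0.03, limma adjusted p = 3.3e-05), with 1850.4, 1839 and 1885 on rosiglitazone arrays and 1641, 1581 and 1559.9 on control arrays. Blvrb, a reductase of biliverdin and flavins, rose by 0.16 (SE 0.04, limma adjusted p = 0.0015), with 1195, 1196 and 1224 on rosiglitazone arrays and 1094, 1073 and 1080.04 on control arrays.

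Where a gene had further probe sets, these were tested one by one over all 27022 probe sets that passed the filter. There were 20 of them, for 17 genes, and 11 were called, where 51.8% of all probe sets were. By the calls of this test, 9 had the call of the gene's brightest probe set, 4 were not called where the brightest was not, 5 were not called where the brightest was, and 2, of Cpox and Nfs1, were called higher where the brightest was not called. For Isca1, Bola3, Nfu1 and Iba57 the further probe set rose by 0.48, 0.79, 0.41 and 1.23. For Tfrc the other probe sets rose by 0.43 and 1.13. The set of Alad that was not called had a log2 change of −0.10, and that of Uros one of 0.26. The brightest sets of Cpox and Nfs1, called in the test over genes, missed the threshold here (limma adjusted p = 0.054 and 0.052).

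**Figure D3:**
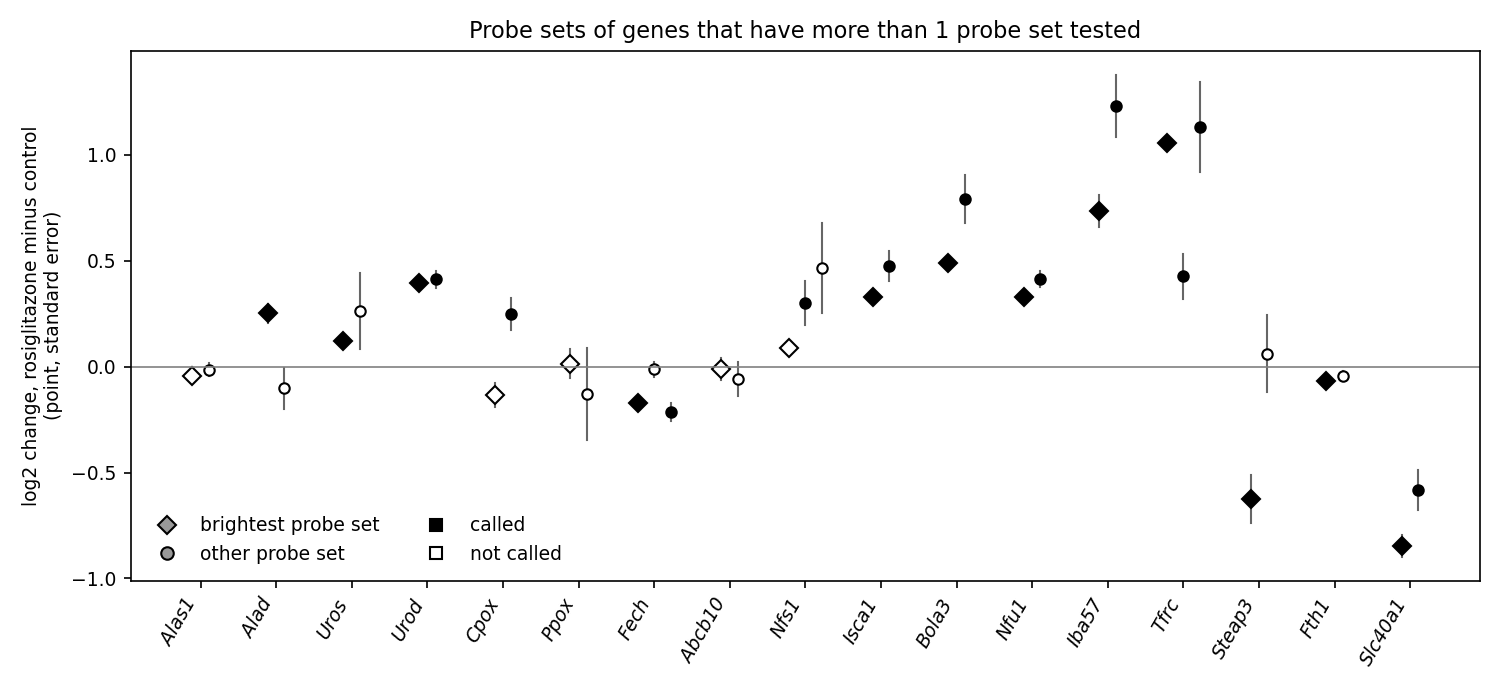
Log2 change, rosiglitazone minus control, with its standard error (3 arrays each) for each tested probe set of the 17 genes with more than 1; diamonds are the brightest set of a gene, and filled symbols were called over all probe sets. For Cpox the brightest set lies at −0.14, open, and the dimmer set at 0.25, filled, and the sets of Iba57 lie at 0.73 and 1.23.

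The scaling of the arrays bears on the small falls. Median centring of each array raised the median log2 change of all genes by 0.12 and quantile normalization raised it by 0.07. Over all genes 39.7% of calls were higher as deposited, 51.1% after quantile normalization and 58.2% after median centring. Called higher were 3047 of 12947 genes as deposited, 3935 of 12945 after quantile normalization and 4550 of 12947 after median centring. Called lower were 4622, 3766 and 3273 in the same order. Among the 27 genes 17 were called higher under all 3 scalings, while 7, 6 and 2 were called lower. The 2 that were lower in all 3 were Slc40a1 (−0.85, −0.74 and −0.72) and Steap3 (−0.62, −0.56 and −0.50), and all 11 cluster assembly genes were called higher in each.

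**Figure D4:**
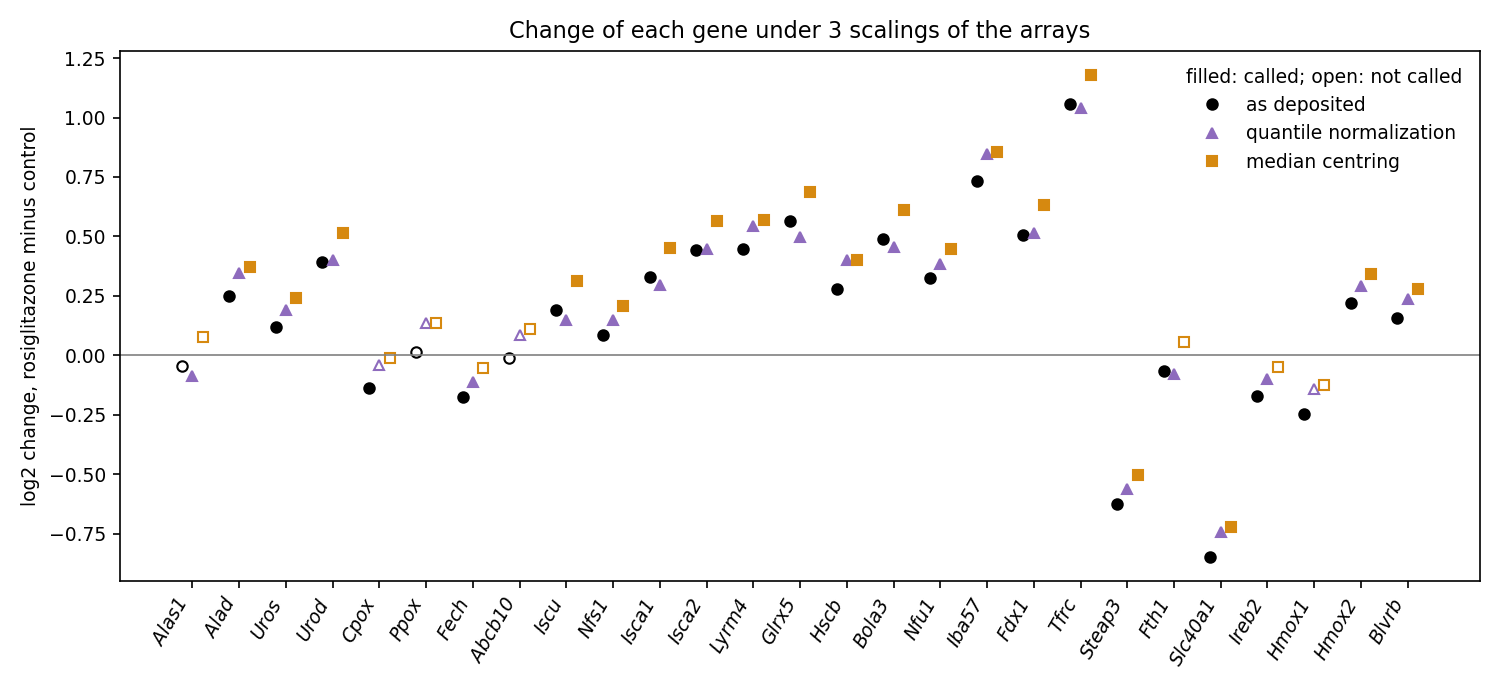
Log2 change of each gene, rosiglitazone minus control, as deposited, after quantile normalization and after median centring of the arrays (3 arrays each; filled symbols were called). The cluster assembly genes and Tfrc stay above 0 in each, Slc40a1 and Steap3 stay below 0, and Alas1, Fth1 and Abcb10 lie on both sides.

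RefSeq promoter windows on the GRCm38.p6 build, from 250 bases before to 50 after each annotated start, were on hand for 24 of the 29 genes (37 windows). They were searched on both strands for the letters of 5 known sites. A direct repeat of AGGTCA with 1 base between is the type of site that PPARγ binds with RXR. It occurred in 0.0396% of all 32851 windows and in 1 of the 37, that of Isca1. The core GCGCATGC of nuclear respiratory factor 1 occurred in 2.71% of windows and in 3 of the 37. These belong to Alas1 and Abcb10, neither of which was called. The antioxidant core TGACNNNGC occurred in 12.4% of windows and in 2 of the 37, those of Isca1 and Nfs1. In Isca1 one of its matches overlaps the direct repeat. TCAAGGTCA, the site of estrogen-related receptors, which contains AGGTCA, occurred in 0.423% of windows and in 0 of the 37. The GC box GGGCGG occurred in 35.7% of windows and in 24 of the 37. A match describes the letters and not binding.

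The stretches with the direct repeat or the respiratory factor core are shown 5′ to 3′ on the gene's strand, with those letters in capitals. They are given for each start at the annotated edge of a gene whose window holds either site, whatever the call of the gene. Isca1 is given as the 250 bases before its start at chr13:59769790-59770039 (minus strand), where the repeat lies 134 to 122 bases before the start. Abcb10 is the 250 bases at chr8:123983123-123983372 (minus strand), where overlapping cores on both strands form 1 palindrome. Alas1 is a stretch of 30 bases at chr9:106247906-106247935 (minus strand), where the same palindrome lies 30 to 39 bases after the start.
Isca1: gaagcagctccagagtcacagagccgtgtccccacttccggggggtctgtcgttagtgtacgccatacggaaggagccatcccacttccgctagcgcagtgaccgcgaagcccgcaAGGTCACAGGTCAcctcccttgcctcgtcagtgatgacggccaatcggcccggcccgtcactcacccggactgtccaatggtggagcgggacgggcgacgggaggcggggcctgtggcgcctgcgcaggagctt
Abcb10: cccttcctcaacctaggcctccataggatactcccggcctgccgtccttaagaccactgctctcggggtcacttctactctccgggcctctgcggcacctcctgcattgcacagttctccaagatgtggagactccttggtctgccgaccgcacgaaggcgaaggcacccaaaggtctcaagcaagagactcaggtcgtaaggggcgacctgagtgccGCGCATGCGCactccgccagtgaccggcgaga
Alas1: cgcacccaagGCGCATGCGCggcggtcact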

How the data were processed

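The authors deposited 1 linear intensity per probe set for 45101 probe sets on each of 6 Affymetrix mouse 430 2.0 arrays. Per the labels, total RNA was made into biotinylated cRNA; for the authors' background correction, summarization and scaling, the software is not given by the sources used here. Intensities under 16 were set to 16 and log2 was taken. The 64 control probe sets and the 40% of the others with the lowest mean were left out. Of 45037 probe sets 34945 carried exactly 1 symbol in the platform annotation, and of these the brightest on average stood for its gene. Testing used limma 3.58.1 under R 4.3.3 (eBayes with a variance trend, two-sided), with Benjamini-Hochberg adjustment over 12947 genes. With 3 arrays a group, the smallest two-sided p from exact permutation is 0.1, so none is shown. The number of arrays limits the precision. The fit was tested on simulated data. All 29 genes were named whatever their values, with up to 4 called genes with the largest change from each longer list. The genes and lists were chosen with earlier results of these data known. The alternatives were 3 settings of filter or floor, log2(value + 1), quantile normalization, median centring, other probe set rules, other limma settings, a replicate block, a threshold of 0.01 and leaving out single arrays.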

Additional observations from a re-analysis of the deposited data

Results flagged for a closer look

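The array carries 3 control probe sets for the mouse transferrin receptor, Tfrc, which stood outside the comparison because control probe sets were left out. All 3 were higher on every rosiglitazone array than on any control array. The set for the 3′ part of the transcript averaged 114.7 ± 5.51 on rosiglitazone arrays and 73.0 ± 1.54 on control arrays, the one for the 5′ part 51.8 ± 3.39 on rosiglitazone arrays and 31.1 ± 4.61 on control arrays, and the one for the middle 50.2 ± 3.22 on rosiglitazone arrays and 11.2 ± 3.49 on control arrays (SD, n = 3 each). These are dim next to the intensity range of the array, and no test was run on them.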

How the results depend on the processing

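Each of 27 genes was recomputed under 19 alternatives. Of 513 values 464 kept their direction and their side of the threshold, and 15 genes did so under every alternative run, among them all cluster assembly genes other than Nfs1, and Tfrc, Slc40a1, Urod, Hmox2 and Blvrb. After median centring 2 genes in all were called lower, 0 in heme synthesis, 2 in iron handling and 0 in heme breakdown. Over all 12947 genes tested 3273 were called lower with that scaling. Without a variance trend 4 genes were called lower, with 1 in heme synthesis and 0 in heme breakdown. The heme synthesis genes called lower numbered 1 with no filter, with the lowest 20% left out, with a floor of 64, with the mean or the most variable probe set, and at a threshold of 0.01. They ranged from 1 to 2 with an array left out. The heme breakdown genes called lower numbered 0 with no filter, a floor of 64 or quantile normalization. Signs turned for Abcb10 (0.085 after quantile normalization, 0.11 after median centring, 0.0053 with array weights, −0.039 to 0.028 with an array left out), Alas1 (0.076) and Fth1 (0.055) after median centring, Cpox (0.056 with the mean of probe sets, 0.25 with the most variable) and Ppox (−0.058 and −0.13 with the same, −0.021 to 0.045 with an array left out). The causes were not tested. Rosiglitazone and control arrays of the same number deviated from their group means with correlations of −0.02, −0.02 and 0.06, so the numbers were not taken to pair samples, and 2 of 6 arrays correlated best with their own number. With the replicate block 17 genes were called higher and 7 lower, as without it, among 7676 calls over all genes. Steap3 and Iba57 were dim, with standard errors of 0.12 and 0.07. Hmox1, which was brighter, also had 0.07, and the part of dim signal in these errors was not tested.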

Other observations

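Of 13 measured genes of heme proteins 6 rose with rosiglitazone, where 23.5% of all genes tested did, and 6 fell, where 35.7% did. The median log2 change was 0.00, and 1 gene was not called. The largest changes were falls, with Cybb (−1.32) and Cyba (−1.09) encoding the membrane subunits of the NADPH oxidase of phagocytes. Falls also among the largest were in Cygb (−1.12), a globin of fibroblasts, and the sterol demethylase gene Cyp51 (−0.81). Macrophage and precursor markers were lower in the same arrays, and their part in these falls was not tested. The 6 rises, named after their values were seen, were Sdhd (0.43), Nos3 (0.32), Cyc1 (0.31), Cycs (0.29), Cyb5b (0.20) and Sdhc (0.15). Nos3 lost its call in 4 of 19 alternatives, and Sdhc with the most variable probe set.

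Among 9 measured target genes of NRF2, the factor that induces Hmox1, 3 rose, where 23.5% of all genes tested did, and 3 fell, where 35.7% did. Nqo1 fell by 0.61 and Osgin1 fell by 0.32. Me1, named after its value was seen, fell by 0.14, but was at −0.017 and not called after median centring. Srxn1 rose by 0.30, with the other sign for its most variable probe set, and Gsr rose by 0.24, or 0.14 with the mean of its probe sets. The other rise, named after its value was seen, was Txnrd1 (0.11), which was not called in 11 of 19 alternatives, among them leaving out control replicate 1, rosiglitazone replicate 1 or rosiglitazone replicate 3. Without control replicate 1 it was at 0.070.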
